A study of Mus musculus with 25 samples.

Results

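The comparison of C57.D300.F1 with C57.CTL.F1 covered 16825 of the 24358 genes of the deposited table, namely those whose estimate succeeded in both conditions and that reached at least 10 counts in 1 of them. C57.CTL.F1 are C57BL/6J males of the first generation whose mothers received corn oil by mouth from embryonic day 9 to 19, and C57.D300.F1 are their counterparts whose mothers received 300 mg/kg/day of di-(2-ethylhexyl) phthalate (DEHP) in corn oil. All males were 14 weeks old by their labels, and RNA was taken from sperm that left the incised cauda epididymis. Each condition rests on 5 libraries, all 10 marked as a re-analysis of earlier libraries, and the table gives 1 value per condition and gene. The study also holds 5 libraries each of C57.D300.F2 (sons of C57.D300.F1 males, whose mothers were not exposed) and of 2 first-generation FVB/N conditions treated as in C57BL/6J, control FVB.CTL.F1 and exposed FVB.D300.F1. The libraries of these 3 conditions are not marked as a re-analysis. Strain or generation therefore cannot be told apart from the set of libraries where these conditions are set beside first-generation C57BL/6J. In the estimated counts a gene's length is not divided out, so a count says how many reads a gene drew and not its level beside other genes, and levels are compared between conditions. The only error available is the standard deviation (SD) that Cuffdiff's model gives for each count, and with 1 value per condition no p-value could be computed. Ratios are log2 ratios of C57.D300.F1 over C57.CTL.F1 with 1 added to each count, so that 1 unit is a doubling. Just inside the limit of 10 counts lay Nhlrc4 (9.53 counts in controls and 10.002 after DEHP), and just outside it lay Dio2 (8.16 and 9.99 counts).

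DEHP is a plasticizer with anti-androgenic effects on the developing male tract. Mature sperm make almost no new RNA, so their RNA is largely what spermatogenesis left, and they are also known to take up RNA while passing through the epididymis. In this study the sperm were looked at for purity under a phase-contrast microscope before extraction. After sequencing, the authors also assessed purity from the distribution of read lengths. Where the transcripts of other organs in these libraries came from was not tested. In such bulk RNA, fewer cells of a type and less RNA per cell cannot be told apart.

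The sum of counts was 8602900 in controls and 7748902 after DEHP, and estimates failed for 54 genes in either condition. The germ cell label was borne out by the sperm tail and spermiogenesis list (37 of 37 genes measured), which held 1.10% of the counts in both conditions. Liver transcripts were also abundant in both. The 22 plasma carrier protein genes held 3.43% of the control counts and 3.21% of those after DEHP, with sums of 295382 and 248424 counts. In the libraries not marked as a re-analysis the sums were 14815 in C57.D300.F2 and, in FVB/N, 10770 in controls and 9171 after DEHP. The 11 seminal vesicle and related RNAs that the study selected as its DEHP-susceptibility set went from 247093 counts to 95.9. The model error of this fall was wide, and Svs5, Svs2, Svs4 and Pate4 differed by 0.13 to 0.14 model SD in size. Of the 6 Svs2 to Svs6 genes 2 fell by over 1 model SD, as did 2 of the other 5. The model's coefficient of variation in controls was 8.96 and 3.08 times that of genes of similar counts, as medians of these 2 groups. After DEHP it was 1.01 times in both. In what follows these 11 RNAs are described only where named, but the counts over all genes include them.

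Most genes differed little. The median log2 ratio was -0.01, the quartiles lay at -0.20 and 0.19, and 86.6% of the genes lay within 0.5 of 0. At 1 log2 unit, 184 genes were higher (1.09% of those compared) and 193 were lower (1.15%). At 2 log2 units, 6 were higher (0.0357%) and 43 lower (0.256%), so the large shifts ran mostly downwards and 178 of the 184 rises were moderate. Without the study's 11 RNAs, 182 genes were lower at 1 unit and 32 at 2 units. Requiring in addition that the difference exceed 1 model SD left 161 higher (0.957%) and 152 lower (0.903%), and at 2 model SD 13 (0.0773%) and 26 (0.155%) were left. With both conditions brought to equal totals, which adds 0.15 to the log2 ratios of all but low counts, 331 genes were higher and 143 lower at 1 unit, so the higher share of the calls went from 48.8% to 69.8%.

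**Figure D1:**
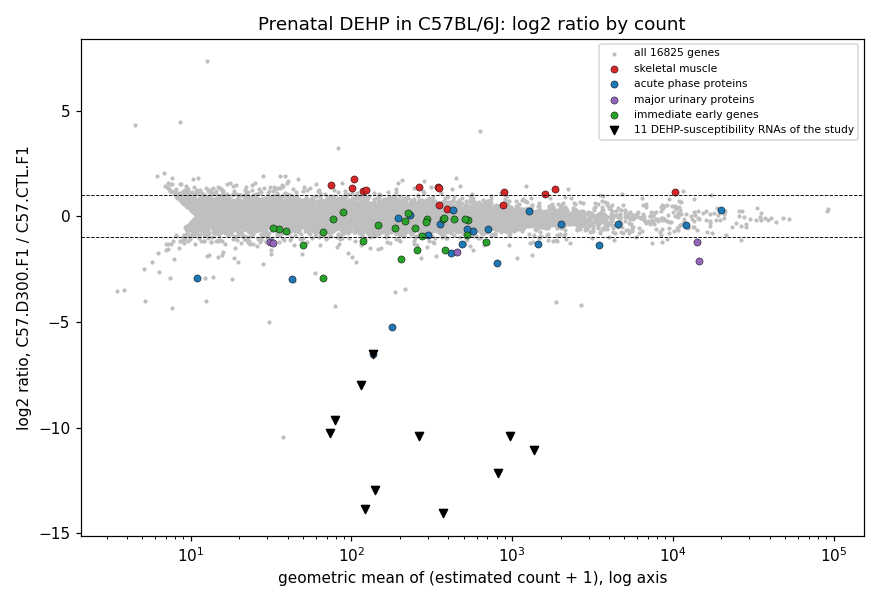
Log2 ratio of C57.D300.F1 over C57.CTL.F1 (vertical) against the geometric mean of the estimated counts with 1 added (horizontal, log axis), 1 point per gene for all 16825 genes, with dashed lines at 1 and -1. Skeletal muscle genes sit above 0, acute phase, major urinary protein and immediate early genes mostly below it, and the 11 RNAs of the study's own list lie at -6.54 or below.

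Genes of skeletal muscle were higher in C57.D300.F1. All 15 genes of the list were measured, all 15 had a ratio above 0 and 12 were higher by at least 1 log2 unit, with a median of 1.23 beside -0.01 over all genes. The list's sum went from 12042 counts, 0.14% of the total, to 26257 counts, 0.339%. Ttn, which encodes the giant sarcomere spring titin, had 6874 counts in controls and 15426 after DEHP, a log2 ratio of 1.17. Its difference was 0.79 of its model SD. Myh4, the myosin heavy chain of the fastest fibres, went from 1183 to 2903 counts (log2 ratio 1.29, 1.31 model SD). Genes of lower count differed by similar amounts.

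Among these, Ckm, the creatine kinase of muscle, had 216 and 556 counts (1.36), and Mylpf, the regulatory light chain of fast fibres, 162 and 420 counts (1.36). Pvalb, the calcium buffer parvalbumin, went from 55.0 to 189.5 counts (1.77, 2.19 model SD) and Myh2, another fast myosin, from 43.7 to 123.6 counts (1.48, 2.13 model SD). In 11 of the 15 genes the difference exceeded 1 model SD. Neb (nebulin), Atp2a1 (the sarcoplasmic calcium pump), Tnnc2 and Tnnt3 (fast troponins), Casq1 (calsequestrin) and Myh1 were the others past 1 unit, with ratios between 1.07 and 1.35. Acta1, skeletal actin, had 725.5 and 1050 counts (0.53). The model's coefficient of variation for list members was 1.10 times that of genes of similar counts in controls and 1.24 times after DEHP, as medians.

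**Figure D2:**
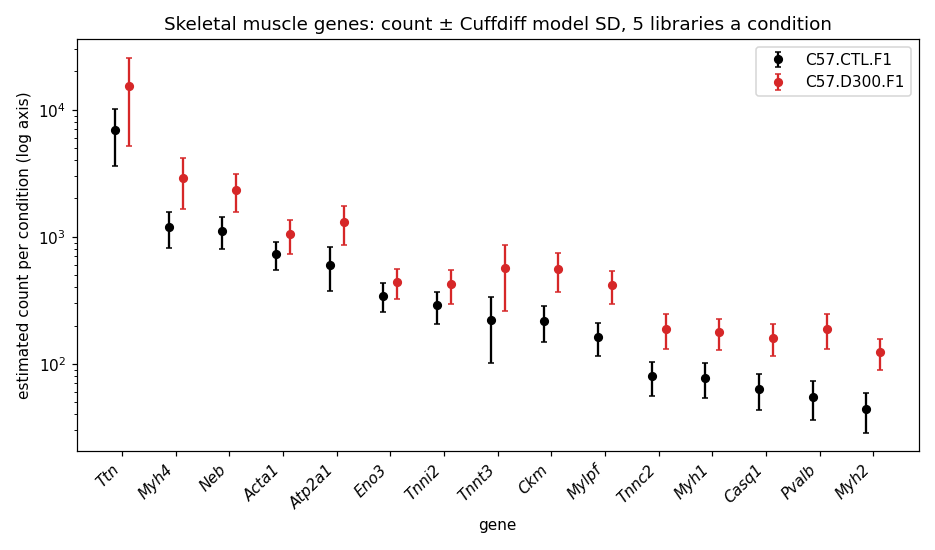
Estimated counts (log axis) of the 15 skeletal muscle genes in C57.CTL.F1 (black) and C57.D300.F1 (red), each from 5 libraries combined, with bars of 1 model SD. The red point lies above the black one for every gene, and the bars overlap for several, Ttn among them.

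A second list of striated muscle genes, drawn up after these values were seen and so no independent support, also had most ratios above 0. Of its 52 genes 41 were measured, 18 were higher by at least 1 unit and 0 lower, with a median of 0.93. It held Xirp2, an actin-binding protein of the attachment sites of myofibrils, at 112 and 375 counts (1.73), Myl1, a fast light chain, at 156 and 504 counts (1.68), and Trdn, the triad protein triadin, at 49.7 and 149.3 counts (1.57). Mybpc2, a fast myosin binding protein, had 60.9 and 161 counts (1.39), and Cox6a2 and Cox7a1, the muscle forms of 2 respiratory chain subunits, went from 3.08 to 13.1 and from 4.64 to 14.4 counts. Of 7 heart markers, chosen in the same way, 3 were measured and 0 reached 1 unit in either direction.

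Smooth muscle genes mostly had ratios below 0. Of 14 genes measured, 13 had a ratio below 0 and 1 was lower by at least 1 unit, with a median of -0.68, and the sum went from 30121 to 18561 counts. That gene was Cnn1, calponin, with 2827 and 1265 counts (log2 ratio -1.16, -0.91 model SD). Acta2 and Myh11, the contractile actin and myosin of smooth muscle, had ratios of -0.78 and -0.79 and differences below 1 model SD. Connective tissue genes leaned upwards, with 19 of 22 above 0, 1 past 1 unit and a median of 0.46. Lum, the collagen-organising proteoglycan lumican, was that gene, with 68.2 and 147 counts (1.10).

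The promoter stretches of 3 of the skeletal muscle genes are shown because the genes moved together. Several motifs were searched on both strands of the windows from 250 bases before to 50 after each start in the RefSeq table on GRCm38.p6. The one shown is the MEF2 site, the A/T-rich site of the muscle factor MEF2, which had the highest share. Among the 12 higher skeletal muscle genes, 10 were in that table and 4 had a MEF2 match (Myh1, Myh4, Pvalb and Ttn), beside 2.33% of the 12461 compared genes in the table. TATAAA and AGAACA each matched in 3 of the 10, beside 10.1% and 16.4% of the compared genes. The CArG box matched in 1 (beside 1.59%), and the NF-kB site and TGACGTCA in 0 (beside 6.27% and 3.16%). Below, the MEF2 match is in capitals, 5′ to 3′ on the gene's strand, and each stretch stops before the first base of any annotated exon. They are chr11:67199852-67200051 (plus strand), chr15:78206401-78206650 (minus) and chr2:76982548-76982797 (minus). The matches begin 211, 180 and 166 bases before the start.
Myh1: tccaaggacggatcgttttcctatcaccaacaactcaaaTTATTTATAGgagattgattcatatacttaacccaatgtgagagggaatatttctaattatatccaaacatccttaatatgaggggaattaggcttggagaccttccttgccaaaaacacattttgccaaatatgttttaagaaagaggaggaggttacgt
Pvalb: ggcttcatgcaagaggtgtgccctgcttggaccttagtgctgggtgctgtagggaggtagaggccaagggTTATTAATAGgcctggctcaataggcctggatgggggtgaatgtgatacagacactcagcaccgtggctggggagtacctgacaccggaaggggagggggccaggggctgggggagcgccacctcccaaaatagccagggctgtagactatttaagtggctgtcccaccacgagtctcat
Ttn: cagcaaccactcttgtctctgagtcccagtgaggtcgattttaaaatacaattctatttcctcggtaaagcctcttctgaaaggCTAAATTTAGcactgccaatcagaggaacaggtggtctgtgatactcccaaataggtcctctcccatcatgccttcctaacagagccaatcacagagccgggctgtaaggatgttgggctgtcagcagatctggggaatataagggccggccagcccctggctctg
A match describes letters only, and binding was not measured.

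Genes of the acute phase response were mostly lower, while those of amino acid catabolism stayed within 1 unit. Which tissue the acute phase transcripts came from was not tested. All 22 acute phase genes were measured, 9 were lower by at least 1 unit and 0 higher, with a median of -0.64, and in 13 the negative difference exceeded 1 model SD. Saa1, a serum amyloid A that liver releases in inflammation, went from 1092 counts to 27.9 (log2 ratio -5.24, -2.62 model SD). Its neighbour Saa2, which is also 1 of the study's 11 RNAs, went from 1304 to 13.02 counts. Orm2, an orosomucoid, had 119.5 and 14.2 counts (-2.99, -2.98 model SD), and Orm3 had 29.5 and 2.96 counts. Members of both families lie next to each other. Fgl1, a secreted fibrinogen-like protein, had 1730 and 369 counts (-2.23, -2.25 model SD). Hp, the hemoglobin scavenger haptoglobin, had 5540 and 2166 counts (-1.35, -1.31 model SD), and Steap4, an iron reductase, 758.5 and 225 counts (-1.75). Saa4 and Orm1 were the others, at -1.32 each.

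Lists of liver genes bracketed this. Of 20 genes named as major urinary proteins, pheromone carriers made by male liver, 5 were measured and all 5 were lower. Their median was -1.27, and the list's sums were 52810 and 16532 counts. Mup20 alone went from 30005 to 6973 counts (-2.11), but by 0.73 of its model SD, and Mup3 from 21889 to 9264 counts (-1.24, -0.64 model SD). These genes are near-identical copies, so reads may have been split among them. Gm2083, which lies in the region of chromosome 4 that holds this cluster, had 0 counts in controls and 159 after DEHP, which is at least 53.0-fold higher against a floor of 3 counts per condition, with a model variance of 0. Alb, albumin, had 83529 and 100464 counts, a ratio of 0.27 and a difference of 0.03 model SD.

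Of the 24 genes of amino acid catabolism and the urea cycle, 0 passed 1 unit in either direction (median -0.07, which turned to 0.08 at equal totals). In the cytochrome P450 family 2 of 62 were higher and 5 lower, beside 1.09% and 1.15% of all genes. Cyp1a2, a xenobiotic hydroxylase of liver, was the higher one of the larger counts, at 588 and 1247 (1.08, 1.13 model SD). Cyp3a11, the main steroid and drug hydroxylase, was lower at 13468 and 6338 counts (-1.09, -0.58 model SD).

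DEHP metabolites activate the lipid sensor PPAR alpha in rodents, so its targets are given as a group. Of 26 measured, 3 were lower and 1 higher, beside 1.15% and 1.09% of all genes, with a median of -0.28. The lower ones were Fabp1, the liver fatty acid carrier, at 11513 and 4847 counts (-1.25, -0.64 model SD), and the adjacent fatty acid hydroxylases Cyp4a10 (124 and 60.4 counts) and Cyp4a14 (275 and 130 counts). Pdk4, a kinase that shuts off glucose oxidation, was higher at 40.5 and 92.6 counts (1.17, 1.77 model SD). Among 22 plasma carriers 2 were lower, Apcs (-1.35) and Ttr (-1.11), and among 16 apolipoproteins 3 were, Apoa4, Apoc1 and Apom. Over all genes the lower share was 1.15%.

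**Figure D3:**
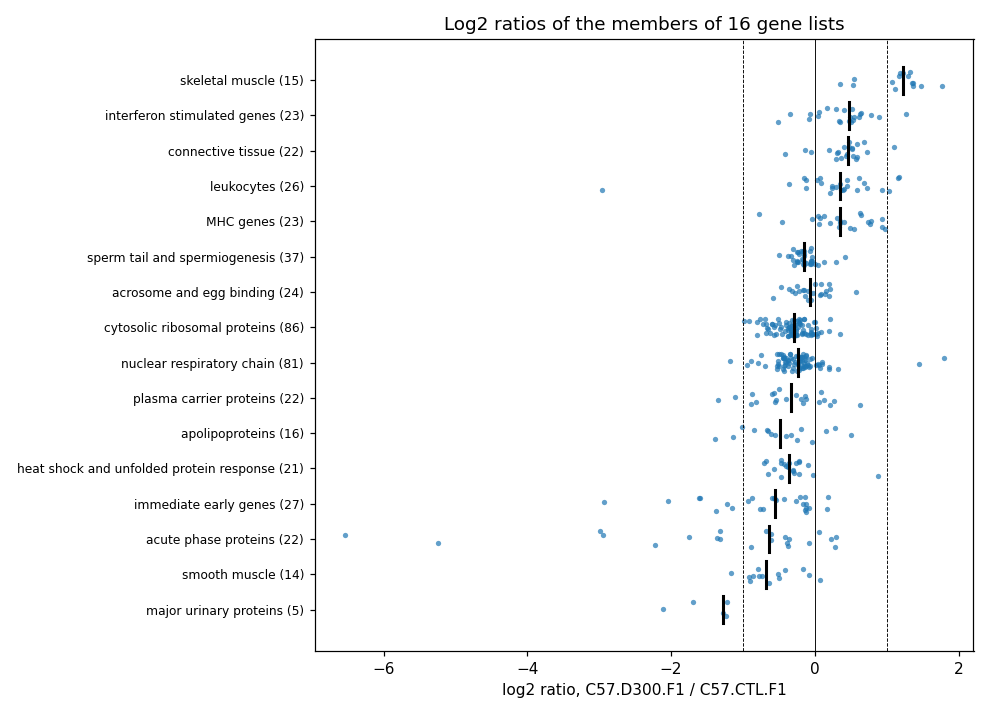
Log2 ratio of C57.D300.F1 over C57.CTL.F1 (horizontal) for each member of selected gene lists (vertical, number measured in brackets), with the list median as a black bar and dashed lines at 1 and -1. Skeletal muscle has the highest median, 1.23, and major urinary proteins the lowest, -1.27.

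Immediate early genes, transcription factors and regulators that cells switch on within minutes of a stimulus, mostly had ratios below 0. Of 27 measured, 7 were lower by at least 1 unit and 0 higher, 25 had a ratio below 0 and the median was -0.55. Fosb had 183 counts in controls and 23.2 after DEHP (-2.93, -3.07 model SD), and Fos 667 and 217 counts (-1.62, -2.34 model SD). Both encode partners of the AP-1 factor. Atf3, a stress-induced repressor, had 413 and 99.5 counts (-2.04, -2.90 model SD), Nr4a1, an orphan nuclear receptor, 445.5 and 147 counts (-1.59, -2.54 model SD), and Junb 1053 and 450.4 counts (-1.22). Each of the first 4 differences exceeded 2 model SD. Nr4a3 and Socs3, the cytokine signalling inhibitor, completed the group at -1.38 and -1.16. Egr1 did not pass 1 unit (169 and 126 counts, -0.42). Of 21 heat shock and unfolded protein response genes, 20 were below 0 but 0 passed 1 unit, with a median of -0.36.

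Neutrophil-attracting chemokines were lower beside them in a list of 21 inflammatory genes that was chosen after values were seen, in which 5 of 16 measured were lower by at least 1 unit and 0 higher. Cxcl1 had 343 and 17.3 counts (-4.23, -2.91 model SD) and the adjacent Cxcl2 453 and 147 counts (-1.62, -2.34 model SD). Ptgs2, the inducible prostaglandin synthase, had 748 and 356 counts (-1.07), and Ccl3 and Il1rn were low in both conditions. S100a9, an abundant neutrophil protein, had 49.6 and 5.53 counts (-2.95, -2.65 model SD). It comes from the leukocyte list, where it was the 1 gene of 26 lower by at least 1 unit and 21 were above 0. The Cxcl1 promoter held an NF-kB site, in capitals, 71 bases before the start (chr5:90890995-90891240, plus strand, GRCm38.p6), as did 6.27% of the compared genes in the promoter table.
Cxcl1: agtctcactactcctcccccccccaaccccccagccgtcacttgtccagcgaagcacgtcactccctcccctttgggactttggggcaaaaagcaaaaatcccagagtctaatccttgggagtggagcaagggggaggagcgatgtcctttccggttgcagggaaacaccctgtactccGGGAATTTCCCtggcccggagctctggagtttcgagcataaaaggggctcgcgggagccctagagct

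Genes of leukocytes and interferon responses mostly had ratios above 0, few of them past 1 unit. Of 26 leukocyte genes 3 were higher and 1 lower by at least 1 unit, 21 were above 0 and the median was 0.36. Those higher were Cd3e and Cd3g, chains of the T cell receptor complex (14.2 and 32.8 counts, 14.5 and 30.7 counts), and Itgax, an integrin of dendritic cells (20.5 and 47.5 counts). The 1 lower gene was the neutrophil marker S100a9, and 4 further genes were below 0 by less than 1 unit. Jchain, which joins secreted antibodies into polymers in plasma cells, had 25.6 and 251.5 counts (3.25, 2.78 model SD). Of 11 measured B and plasma cell genes, listed after values were seen, it was the 1 gene past 1 unit. In a list of lymphocyte and monocyte chemokines and receptors, also chosen afterwards, 7 of 16 were higher and 0 lower. Cxcl13, the B cell attractant, had 34.5 and 101 counts (1.53, 1.83 model SD), and Ccr2, the monocyte receptor, 127 and 278 counts (1.13, 1.98 model SD).

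Interferon stimulated genes were above 0 in 19 of 23 cases with a median of 0.47, and 1 passed 1 unit. It was Gbp2, a guanylate binding protein that acts against intracellular pathogens, with 121 and 295 counts (1.28, 2.18 model SD), and its neighbour Gbp2b had 59.7 and 137 counts (1.18). MHC genes were above 0 in 20 of 23 cases with a median of 0.36. Cd74, the invariant chain that guides class II molecules, reached 0.98 with 2508 and 4949 counts. The red blood cell list had 9 genes measured, 1 lower (Hbb-b1, a beta globin, 487 and 178 counts) and a median of -0.25. Endothelial genes were above 0 in 10 of 12 cases, with a median of 0.21.

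Small RNAs showed a few shifts within a family that did not move as a whole. Of 117 microRNA genes measured, 6 were higher and 6 lower by at least 1 unit, with a median of 0.13, beside 1.09% and 1.15% of all genes. By annotated gene type, 10.9% of 110 microRNA genes passed 1 unit in either direction, beside 2.09% of 15387 protein-coding genes. These shares were not matched for count. The model's coefficient of variation for list members was 1.51 times that of genes of similar counts in controls and 1.29 times after DEHP, as medians. Whether this wider error accounts for the higher share was not tested. The lower ones were Mir5112 (-4.35), Mir8114 and, known from liver and vessels, Mir122, Mir192, Mir126a and Mir126b. Mir192, abundant in liver and gut, had 2535 and 698 counts (-1.86, -0.77 model SD). Mir122, the liver microRNA, had 60.0 and 11.9 counts (-2.24, -0.46 model SD). Mir126b, antisense to Mir126a in the endothelial gene Egfl7, had 133 and 47.5 counts (-1.47, -1.17 model SD), and Mir126a 20.9 and 9.05 counts. These 2 genes overlap on opposite strands. The alignment used a stranded setting, and whether reads were also counted by strand is not given in the sources used here. Mature sequences of Mir192, Mir126a (1 arm) and Mir126b are shown with the seed, bases 2 to 8, in capitals, from RefSeq on GRCm38.p6, in which 102 of the 117 genes were matched.
miR-192-5p: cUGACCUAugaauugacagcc
miR-192-3p: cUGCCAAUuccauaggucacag
miR-126a-3p: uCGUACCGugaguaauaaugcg
miR-126b-3p: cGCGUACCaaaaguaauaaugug
miR-126b-5p: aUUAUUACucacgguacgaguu
No seed was shared among these 5, and a gene's count does not say which arm was read. Among the higher microRNA genes, Mir6236 had 3383 and 6937 counts (1.04, 1.05 model SD). The others were Mir883a, Mir3963, Mir3968, Mir7210 and Mirlet7c-1. Of 112 small nucleolar RNA genes, which guide RNA modification, 3 were lower and 0 higher, with a median of 0.17. The 3 were Snord55 (13081 and 5532 counts), Snord45c (2455 and 1138) and Snord92 (2079 and 1039). By annotated gene type, 2.80% of 107 such genes passed 1 unit, near the 2.09% of protein-coding genes. The model's coefficient of variation for list members was 2.03 times that of genes of similar counts in controls and 1.92 times after DEHP, as medians.

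Beyond the 11 RNAs, seminal vesicle genes outside that list were also lower. Of 10 listed, 5 were measured, all 5 had a ratio below 0 and 3 passed 1 unit. Svs1, an amine oxidase-like secreted protein, had 11543 and 619 counts (-4.22), and Spinkl, a relative of the Spink protease inhibitors, 7670 and 458 counts (-4.06). Their differences were 0.59 and 0.68 of the model SD in size. Ceacam10, an adhesion molecule of semen, had 3514 and 1472 counts (-1.25). The coefficient of variation under the model was, as a median over this list, 1.96 times that of genes of similar counts in controls and 1.03 times after DEHP. The epididymal lists did not move in this way. Of 13 caput genes 1 was lower (Adam28, 19.4 and 7.66 counts), and 0 of 6 cauda and vas deferens genes passed 1 unit.

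Germ cell genes differed little. None of the 37 sperm tail and spermiogenesis genes and none of the 24 acrosome genes passed 1 unit, with medians of -0.15 and -0.07, and the 17 piwi pathway genes had a median of -0.05. At equal totals the medians of the last 2 turned to 0.08 and 0.10. Smcp, a capsule protein of sperm mitochondria, had 35149 and 31101 counts, and Odf1, of the outer dense fibres, 21227 and 20238. Prm2, a protamine that packs sperm DNA, had 20903 and 12610 counts (-0.73, -0.57 model SD), while Prm1 had 1038 and 1162 (0.16). Among 25 meiotic genes Sycp3, of the chromosome axis, was the 1 past 1 unit, at 16.5 and 34.7 counts and 0.34 model SD. The 16 DNA methylation genes, the 11 steroid receptors and cofactors and the 27 Hox genes held 0 genes past 1 unit.

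Ribosomal protein genes mostly had ratios slightly below 0. Of 86 measured, 77 were below 0 and 0 passed 1 unit, with a median of -0.29, and the sum went from 249169 to 186306 counts. Respiratory chain genes were below 0 in 70 of 81 cases, with a median of -0.24. By at least 1 unit, 2 were higher, the muscle forms Cox6a2 and Cox7a1, and 1 was lower, beside 1.09% and 1.15% of all genes. The lower one was Uqcrh, a subunit of complex III, with 2691 and 1186 counts (-1.18, -1.75 model SD). The ratio also moved with transcript length. Among 15387 protein-coding genes the median was -0.14 where the longest annotated transcript was under 1000 bases and 0.06 at 8000 bases and over, and Spearman's rho between ratio and length was 0.171, as a description across genes of the same libraries. Most ribosomal protein transcripts are short, with a median of 1054 bases for the longest, and the part of length in their shift was not tested. Skeletal muscle genes, with a median of 1847 bases, lay above the median of their length class throughout.

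**Figure D4:**
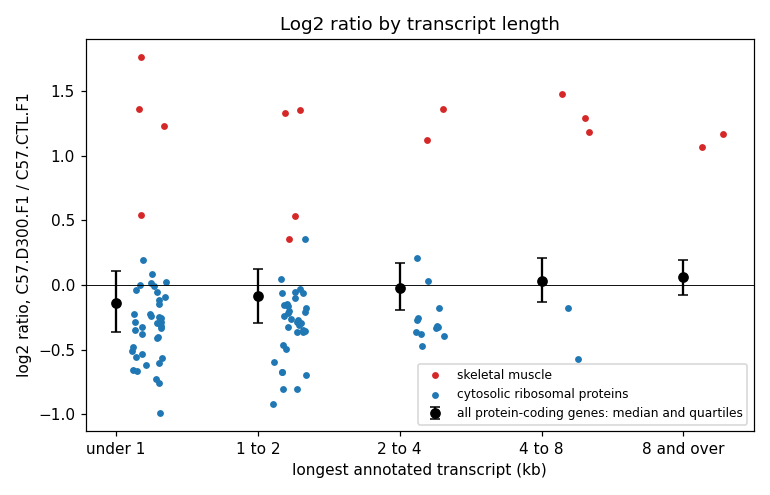
Log2 ratio of C57.D300.F1 over C57.CTL.F1 (vertical) by length of the longest annotated transcript in kb (horizontal), as median and quartiles over protein-coding genes (black), with single skeletal muscle genes in red and ribosomal protein genes in blue. The black medians climb from -0.14 to 0.06, and red points lie above them in each class.

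Several genes in none of these groups had large shifts. A630095E13Rik (chr9:36635754-36643376) had 1387 counts in controls and 0 after DEHP, which is at least 462-fold lower against a floor of 3 counts per condition, at -1.13 model SD. Tmem91 (chr7:25669139-25675166), a membrane protein gene, had 172 and 4.44 counts (-4.99, -3.45 model SD). Gli2 (chr1:118834132-119053619), a transcription factor that carries the hedgehog signal, had 643 and 53.0 counts (-3.58, -3.49 model SD). These 2 had the largest falls in model SD among the genes named here. Gli2 had 55.6 counts in C57.D300.F2 and, in FVB/N, 37.5 in controls and 36.3 after DEHP. Tmem91 had 8.73, 5.70 and 9.11 counts in the same order, so C57.CTL.F1 was the 1 condition with high values. Of 13 measured hedgehog pathway genes, listed afterwards, Gli2 was the 1 past 1 unit. The same held for Saa1, with 10.7, 6.04 and 6.12 counts in those 3 conditions, and for Cxcl1, with 5.09, 5.69 and 4.18.

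Rbp2, a retinol carrier of the gut, went from 154 to 2540 counts (4.04, 1.09 model SD), and it was the 1 of 27 retinoid handling genes past 1 unit. It had 242 counts in C57.D300.F2 and, in FVB/N, 1016 in controls and 2911 after DEHP. Dact3, a Wnt pathway inhibitor, had 2123 and 533 counts (-1.99, -2.22 model SD), and Tbc1d7, a subunit of the tuberous sclerosis complex, 196 and 50.7 (-1.93, -2.61 model SD). Tspan1, Fosb and the noncoding 2700070H01Rik were among the largest falls, at -3.06, -2.93 and -2.69. Among the rises were the noncoding Gm12830 (236 and 836 counts, 1.82) and D430020J02Rik (112 and 336 counts, 1.58), the ciliary gene Traf3ip1 (747 and 1996 counts, 1.42), Fam65a (1.44) and the pseudogene Stk-ps2 (1.39). Dnase2b, an acid nuclease, had 711 and 64.4 counts at -0.64 model SD, and Spink11 had 537 and 137 counts. Ugt2b38, a glucuronosyltransferase, had 224 and 49.3 counts (-2.16).

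Genes past 1 unit in 1 direction lay next to each other in 19 places, 13 lower and 6 higher, which together held 47 genes. Next to each other means consecutive compared genes within 200 kb of each other. Apart from the Svs genes on chromosome 2, the lower runs included Saa4, Saa1 and Saa2 (chr7:46727998-46754313), Orm1, Orm3 and Orm2 (chr4:63344560-63365878), Mup20, Mup3 and Mup21 (chr4:62050234-62150863), Cxcl1 and Cxcl2 (chr5:90891241-90905938), Cyp4a14 and Cyp4a10 (chr4:115486200-115533649), and Aoc1, Doxl2 and Svs1 (chr6:48872896-48991722). The higher runs included Myh2, Myh1 and Myh4 (chr11:67171027-67260446) and Gbp2b and Gbp2 (chr3:142594847-142638008). Coordinates were taken from GENCODE M21, whose assembly GRCm38 is the one mm10 names. Many of these runs hold related copies, among which reads can be shared.

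In FVB/N, whose libraries are separate from those of C57BL/6J, the same genes were divided between ratios above and below 0. Of 184 genes higher in C57BL/6J, 130 were measured in FVB/N, where 63 had a ratio above 0. By at least 1 unit, 6 of the 130 were higher (4.62%) and 10 lower (7.69%), beside 2.16% and 0.619% of all 16471 genes compared in FVB/N. Among the 15720 of the 16825 genes that were measured in FVB/N, the shares were 1.51% and 0.522%. The shares of the 130 were above both backgrounds in either direction, but these backgrounds were not matched for count. In C57BL/6J 48 of the 184 higher and 101 of the 193 lower genes reached 100 counts, beside 10410 of the 16825. Whether low counts account for the excess was not tested. Of 193 lower genes, 131 were measured and 63 were below 0, with 7 lower (5.34%) and 13 higher (9.92%) by at least 1 unit. Without the study's 11 RNAs, 127 were measured and 60 were below 0, with the same 7 and 13. Medians in FVB/N were -0.02 and 0.02.

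Single lists behaved unlike each other. Skeletal muscle had a median of -0.77 in FVB/N, with 14 of 15 genes below 0 and sums of 6811 and 3886 counts, against 1.23 in C57BL/6J. Connective tissue had medians of -0.27 and 0.46. Immediate early genes had -0.54 in FVB/N and -0.55 in C57BL/6J, with 26 of 27 and 25 of 27 genes below 0, and smooth muscle -0.54 and -0.68. Fos had 145 and 68.9 counts in FVB/N (-1.06). No difference between strains was tested, since each condition has 1 value. In C57.D300.F2, which would share its control with the present comparison, the skeletal muscle sum was 14849 counts, the immediate early sum 8282 and the smooth muscle sum 14615, beside 12042, 8568 and 30121 in C57.CTL.F1. Here too generation and set of libraries cannot be told apart.

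**Figure D5:**
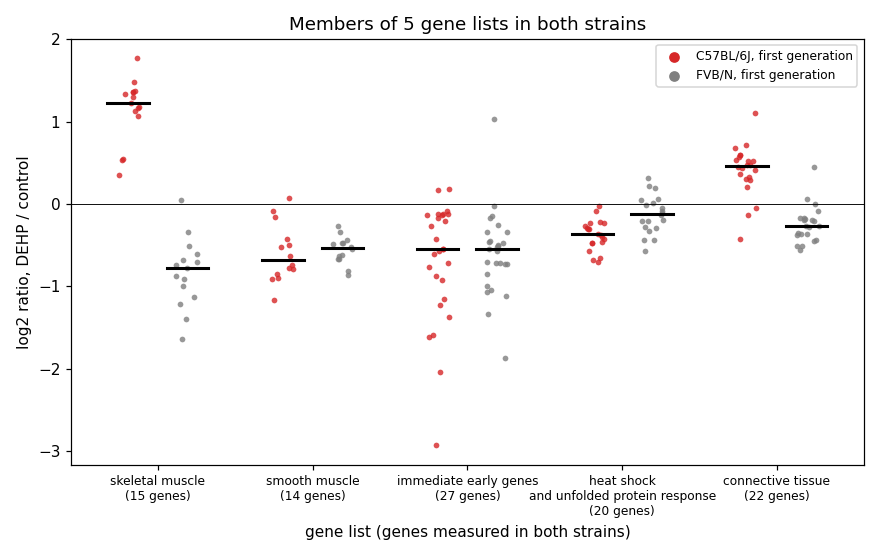
Log2 ratio of DEHP over control for the members of 5 gene lists measured in both strains, C57BL/6J in red and FVB/N in gray, 1 point per gene and black bars at the medians. Skeletal muscle genes lie above 0 in C57BL/6J (median 1.23) and mostly below it in FVB/N (-0.77), while immediate early genes lie mostly below 0 in both.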

How the data were processed

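Per the labels and the paper's methods, the authors sequenced sperm RNA by all-RNA-seq, clipped adapters, mapped reads to mm10 with TopHat and quantified genes with Cuffdiff. Per the submitters' processing notes CASAVA 1.8.2 was used, and other versions are not given in the sources used here. The deposited signal is 1 estimated count per gene and condition, pooled over 5 libraries and scaled between libraries by Cuffdiff. A second deposited column, unit score, is the model variance of that count, whose square root is the model SD. Another gives the status of the estimate. In all, 15 columns of 5 conditions were read.

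Log2 ratios had 1 added to each count. Genes needed a successful estimate in both conditions and 10 counts in 1 of them. The SD of a difference is the root of the summed variances. Counts of 3 per condition were the floor for folds against 0, and floors cover counting error only. Since the table pools the libraries, no SD between libraries, test or p-value was computed. Lists (65 fixed, 8 added after values were seen) were described by counts and medians, and members and lists were chosen with earlier results of these data known.

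Genes named are the 15 largest rises and 15 largest falls with at least 100 counts whose difference exceeded 1 model SD, outside the study's 11 RNAs, genes past 2 units with 100 counts, list members past 1 unit or otherwise those of highest count, and genes for the label check. Among genes past 2 units, the study's 11 are named as a set. A few further genes were chosen after their values were seen. Coordinates were found in GENCODE M21 for 16630 genes. The procedure was tested on simulated data in which no gene of low count was changed and the spread was a set value, not one taken from these libraries. That test therefore does not cover moderate shifts at low counts. Alternatives were 3 scalings, pseudocounts of 0.1 and 10, a floor of 3, minimum counts of 100 and none, and differences above 1 or 2 model SD. Python 3.11.15 with scipy 1.17.1, pandas 2.3.3, matplotlib 3.10.9 and numpy 2.4.6 were used.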

Additional observations from a re-analysis of the deposited data

Results flagged for a closer look

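The skeletal muscle list moved in opposite directions in the strains under the same exposure. Its median log2 ratio was 1.23 in C57BL/6J, with 15 of 15 genes above 0, and -0.77 in FVB/N, with 14 of 15 below 0. It was singled out because both medians passed 0.5 in size with opposite signs. The difference was not tested, since each condition has 1 value from 5 pooled libraries.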

How the results depend on the processing

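No paired analysis was possible because the table gives 1 value per condition, and alternatives that leave out a library were not run for the same reason. Counts of genes at 1 log2 unit (184 higher, 193 lower) and at 2 (6 and 43) moved by over 1.5 times under the alternatives named next. At equal totals 331 genes were higher at 1 unit and 10 at 2 units, and at equal totals without the 11 RNAs, an alternative chosen after seeing the data, 277 were higher at 1 unit. With a pseudocount of 10 the counts were 73 higher and 121 lower at 1 unit and 27 lower at 2. With a minimum of 100 counts they were 48 and 101 at 1 unit and 3 and 27 at 2, and with no minimum 460 and 329 at 1 unit and 11 higher at 2. Above 1 model SD, 2 genes were higher and 26 lower at 2 units. Above 2 model SD, 13 and 26 were left at 1 unit and 1 and 12 at 2. The minimum and model SD alternatives compare fewer or more genes by construction, and for the others the cause was not tested. Of the list medians, 639 values under alternatives moved by less than 0.25 and 15 by more, with 0 past 1 unit reversed. Of the values of 46 named genes under alternatives, 293 stayed and 29 moved, with 0 reversed. Most of these genes were chosen for large ratios, the scalings shift log2 ratios by 0.15 at most, and a pseudocount cannot change a sign. The absence of reversals was therefore set by that choice. The medians of 18 lists near 0, among them acrosome, piwi pathway and amino acid catabolism, changed sign at equal totals. Counting depth limits genes under 100 counts most, and the spread between libraries is not known.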
